A study of Homo sapiens with 16 samples.

Results

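A set of 45 genes of mitosis and the mitotic spindle was followed through 16 libraries of the human leukemia cell lines MOLM13 and K562. The genes were chosen by name for their roles in mitosis and were looked up by symbol among the 25221 genes of the count table, where 45 of 45 were found. The set was taken up with its levels and its changes after treatment already known, so the treatment changes given here are a description and are not independent evidence. MOLM13 is an acute myeloid leukemia line (FAB M5a in the labels) that carries MLL-AF9, and K562 is a blast-crisis chronic myeloid leukemia line that carries BCR-ABL. Both were cultured for 4 h with Ro 08-2750 (Ro) at 20 µM, a small molecule studied as an inhibitor of the RNA-binding protein MSI2, or with DMSO alone, and treated and control cultures held the same 0.1% DMSO. Each line gave 4 pairs of a DMSO and a Ro library, numbered 1 to 4 in the labels, and no allele or genetic change separated DMSO from Ro libraries within a line. Each line is a single established cell line, and the labels do not say what the members of a pair share, so a p-value measures only the spread between these libraries.

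Mitosis is driven by CDK1 bound to cyclin B, which is switched on by CDC25 phosphatases and switched off when the anaphase-promoting complex marks cyclin B and securin for destruction. Between these steps, kinetochores assembled on centromeres capture spindle microtubules, the spindle checkpoint holds CDC20 until all chromosomes are attached, and motors and microtubule cross-linkers build the spindle and then the cleavage furrow. Most of the mRNAs concerned rise together in late S and G2 phase and fall in G1, through FOXM1 and the MuvB complexes that bind their promoters. In a bulk culture, fewer cells in G2 and mitosis and less mRNA in each such cell cannot be told apart.

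Libraries were made from mRNA 3′ ends, and the values are counts of reads per gene. The total count per library ranged from 3143129 (K562 DMSO library 2) to 43571060 (K562 DMSO library 1), and 3 counts, the floor for telling a gene from 0, were 0.954 CPM (counts scaled to the library total) in the smallest library. Other CPM values are scaled to TMM-adjusted library sizes within a line. All 45 genes reached 3 counts in every library and passed the filter on low counts in both lines, and together they held between 0.322% and 0.627% of the counts of a library. Of 11 erythroid markers of K562, 10 were higher in K562 than in MOLM13, and HBE1 had 0 counts throughout. Of 10 myeloid markers of MOLM13, 7 were higher in MOLM13, while CD33, LYZ and CD14 were not.

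Some libraries stood apart in these genes. Each gene was compared, on the log2 CPM scale, with its mean over the 8 libraries of its line. In MOLM13 both libraries of pair 4 were high, with a median over the 45 genes of 0.35 in the DMSO library and 0.18 in the Ro library, whereas the other 3 DMSO libraries lay between -0.034 and -0.0062 and the other 3 Ro libraries between -0.18 and -0.15. In K562 the DMSO library of pair 4 was low, with a median of -0.55 and single genes down to -2.27, and the other 7 libraries lay between -0.092 and 0.22. The all-gene medians lay within -0.030 and 0.044 in all 16 libraries. The K562 changes after Ro are therefore given over all pairs and without pair 4. For MOLM13, results with libraries or pairs left out are given in the closing part, where the median change was smallest without DMSO library 4.

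**Figure D1:**
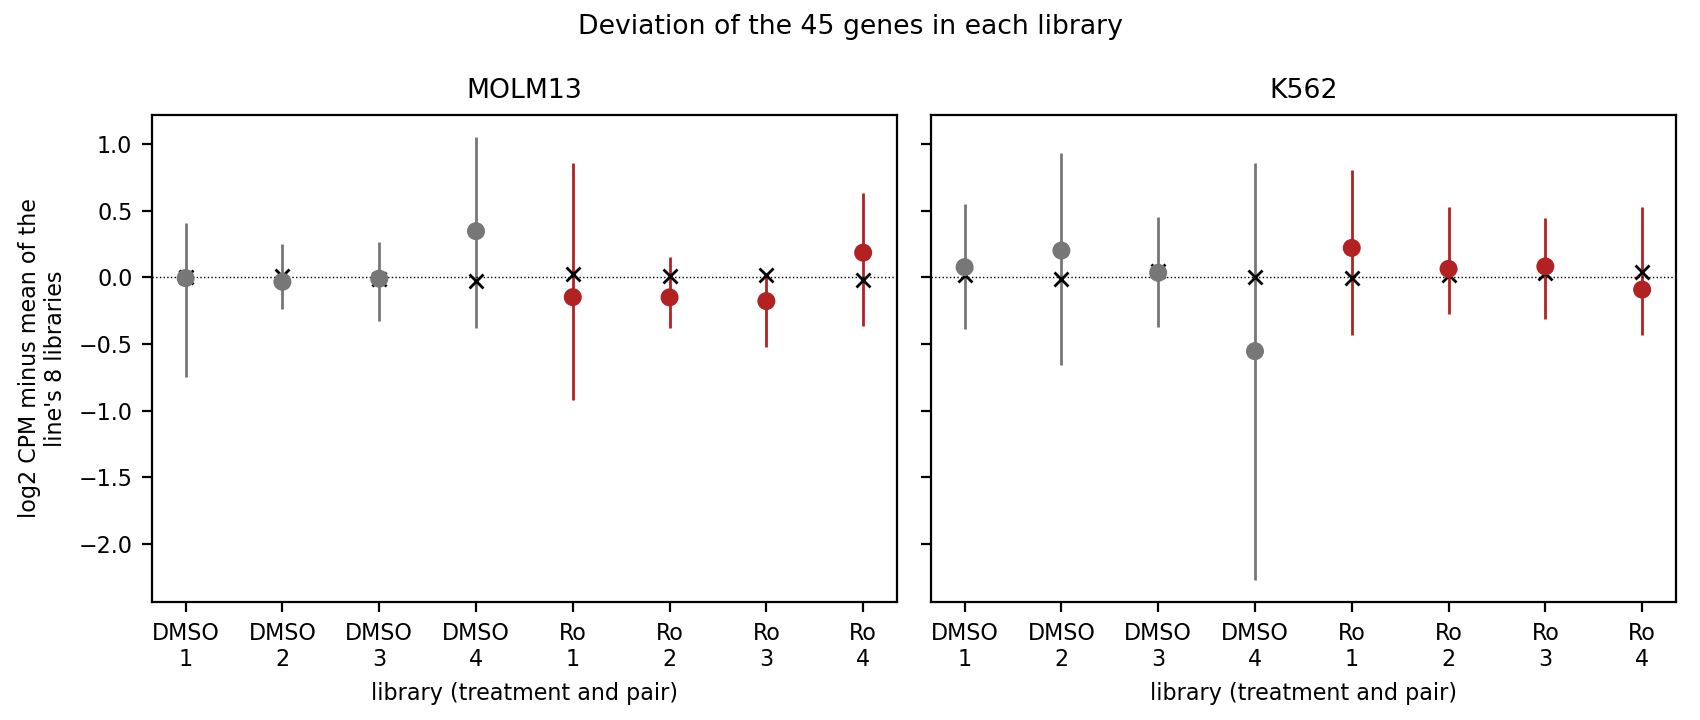
Log2 CPM of the 45 genes minus each gene's mean over the 8 libraries of its line (vertical axis), for MOLM13 (left) and K562 (right). Circles are the median over the 45 genes (grey for DMSO, red for Ro), vertical lines run from the lowest to the highest gene, and crosses are the median of all genes tested. Both MOLM13 libraries of pair 4 sit above the others of their group (0.35 and 0.18), and K562 DMSO library 4 sits at -0.55.

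In MOLM13, most mitotic mRNAs had slightly lower fitted levels after 4 h with Ro. With the pair number as a block, 42 of 45 genes had a lower fitted level, 3 had a higher one, and the log2 changes (Ro over DMSO) ran from -0.40 to 0.11 with a median of -0.18. A group of 5 passed the test, all lower: HMMR, BUB3, CCNB1, ZWINT and CDC20, of which HMMR sits at the spindle poles, BUB3 and ZWINT act at the kinetochore, CCNB1 is cyclin B1 and CDC20 activates the anaphase-promoting complex. These calls depended on the pairs included: 0 of 45 genes passed without pair 1 or without pair 3, 3 without pair 2 and 5 without pair 4. The share of all genes called in these fits is not given here. The median over all 15031 genes tested was 0.0015, and that over 2975 other genes with a mean level in the middle range of the 45 was -0.027. A lower fitted level was seen for 93.3% of the set, 49.6% of all genes tested and 58.2% of those of like mean level.

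The calls depended on the pairing of the libraries. Without the block, the quasi-likelihood test of edgeR, adjusted over all genes by the Benjamini-Hochberg method, called 0 of 45 genes at the threshold of 0.05, as it did over all genes (0% higher and 0% lower), and 1 of the 45, CCNB1, had an unadjusted p under 0.05. With the block, edgeR called 5 of 45 genes lower and 0 higher, where 1.17% of all genes were called lower and 0.938% higher. Of the 2975 genes of like mean level, 2.32% were called lower. An unadjusted p under 0.05 with the block was seen for 25 of 45 genes, or 55.6%. It was seen for 17.2% of all genes tested and 24.1% of those of like mean level. The blocked edgeR count was 6 with DESeq2 size factors, 3 with upper-quartile and 3 with total-count scaling. The share of all genes called under these scalings is not given here. DESeq2 with the block called 7, the same 5 with AURKB and UBE2C, beside 266 of all 15031 genes tested. Since the set was chosen with this contrast known, these shares are given beside the background only.

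Counted by pairs, 23 of the 45 genes were lower in Ro than in DMSO in all 4 MOLM13 pairs, where 13.3% of all genes were, and 0 were higher in all 4 pairs, where 11.4% were. Of the 2975 genes of like mean level, 19.3% were lower and 334 genes were higher in all 4 pairs. Pair 1 had a median log2 change of -0.054 with 32 of 45 genes lower, pair 2 of -0.12 with 39 lower, pair 3 of -0.22 with 41 lower and pair 4 of -0.21 with 40 lower. Pair 1 was thus the most mixed, with single genes from -0.88 to 0.52. Every Ro library was below every DMSO library for 2 genes, CCNB1 and ASPM (background 0.559%), and every Ro library was above every DMSO library for 0 (background 0.765%). When the trend of change on mean level over all genes was removed, the median of the 45 was -0.13.

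**Figure D2:**
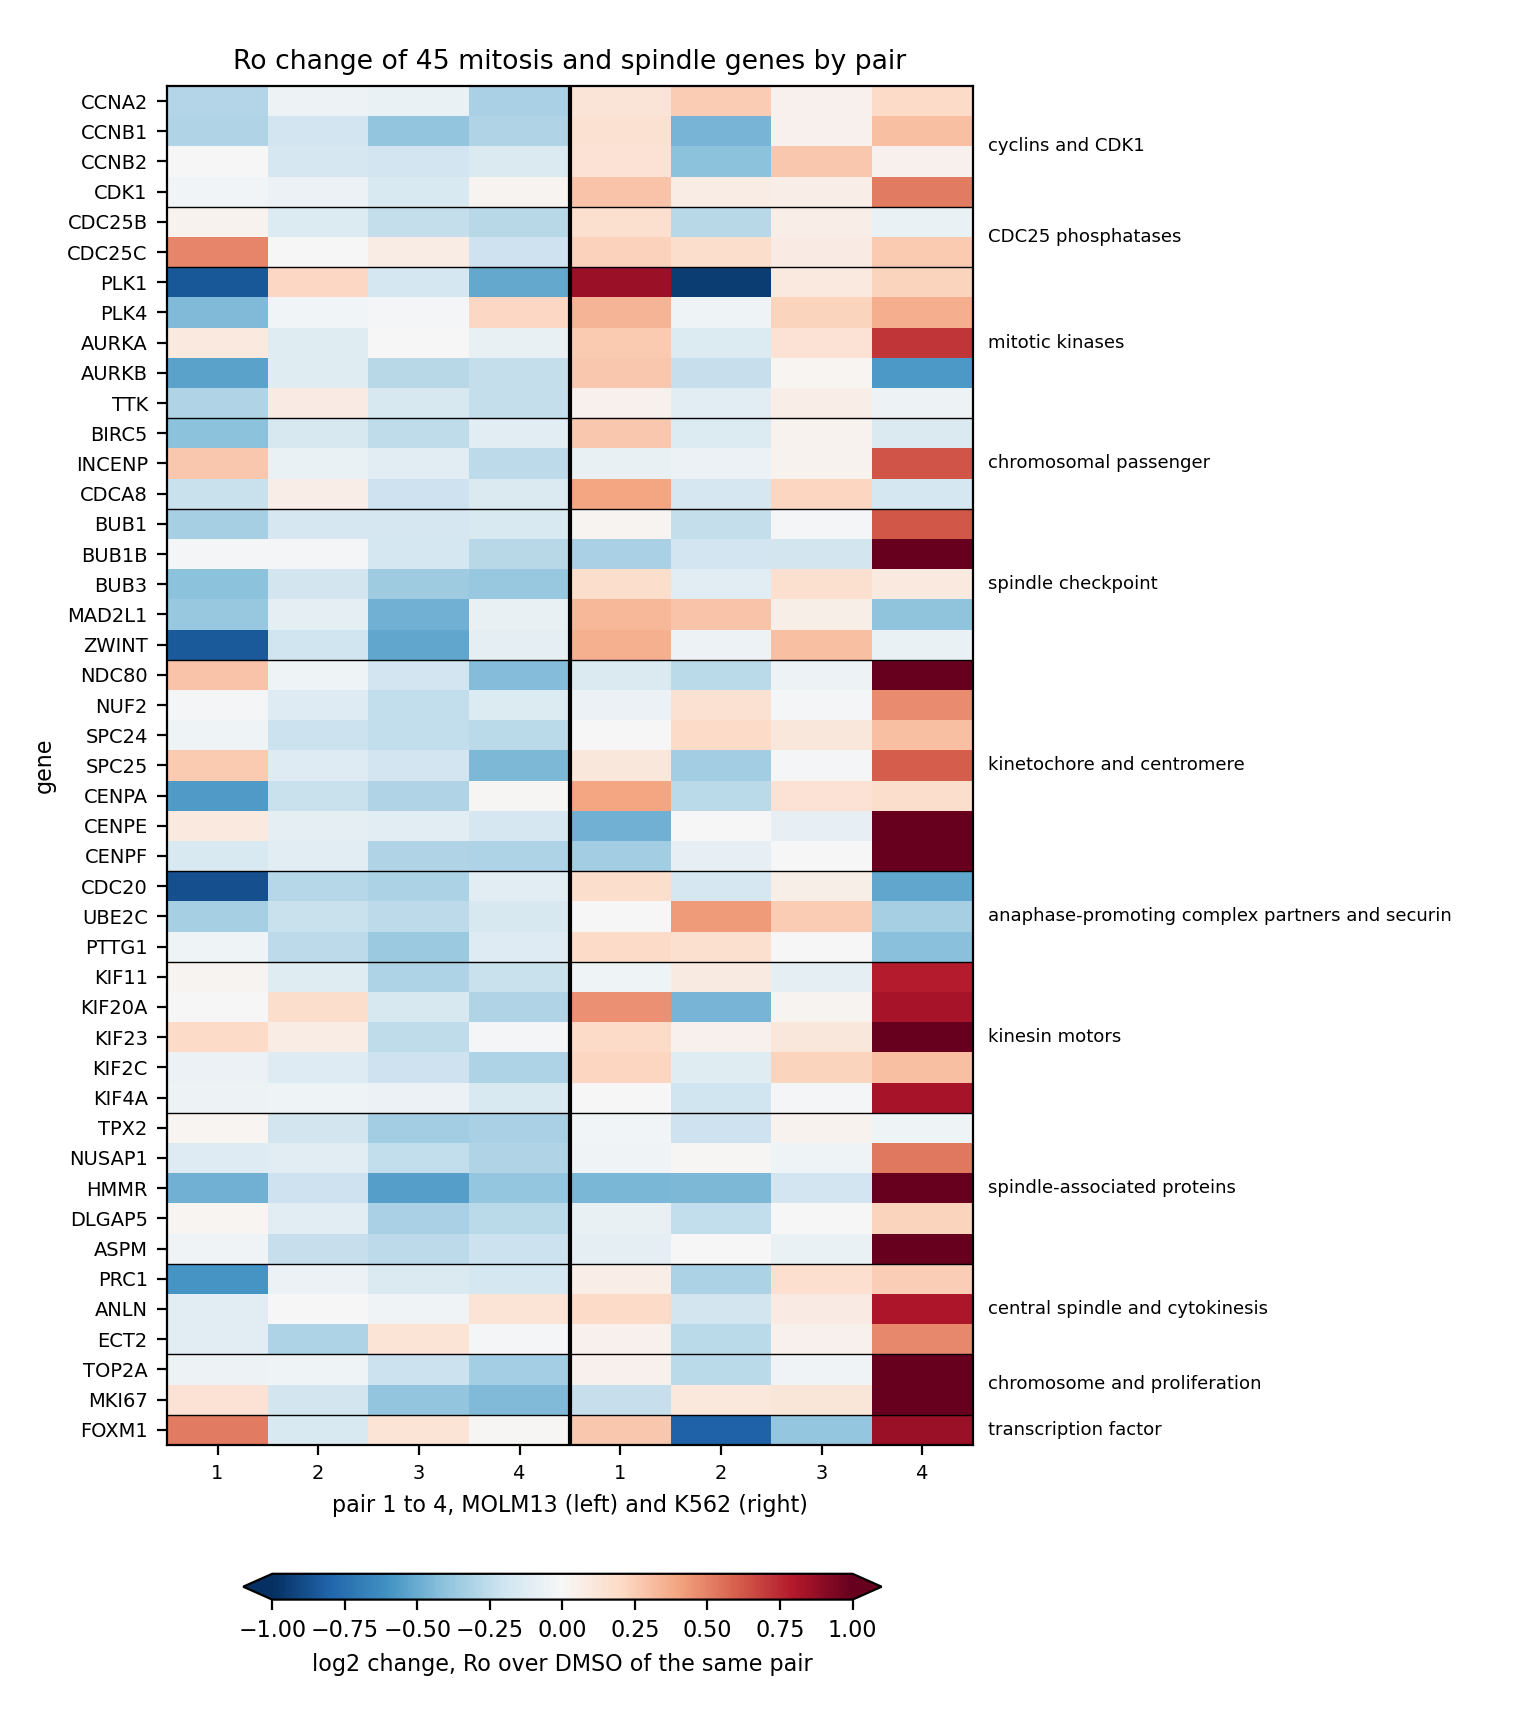
Log2 change of each of the 45 genes (rows, grouped by role) in each pair (columns 1 to 4 of MOLM13, then of K562), as Ro over DMSO of the same pair. Blue is lower and red higher in Ro, and the color scale ends at 1 and -1. The MOLM13 columns are mostly pale blue, with 32 to 41 of 45 genes lower per pair, and K562 pair 4 is mostly red, with 34 of 45 higher.

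The spindle checkpoint genes were lower in Ro in all 4 MOLM13 pairs for 5 of 5 genes, with a median log2 change of -0.25. BUB3 (Entrez 9184, chr10:123154402-123170467, GRCh38.p14), which brings the checkpoint kinase BUB1 to kinetochores, had 162, 173, 199.7 and 359 CPM in DMSO libraries 1 to 4 and 122, 153, 156 and 276 CPM in Ro libraries 1 to 4. Each Ro library was below its partner, but the groups overlapped, and both libraries of pair 4 were far above the rest. With the block BUB3 fell by 20.5% (log2 -0.33 ± 0.069, SE, edgeR adjusted p = 0.0129). ZWINT (chr10:56357227-56361273), a kinetochore protein that helps recruit checkpoint components, had 68.8, 62.6, 78.3 and 104 CPM in DMSO and 38.4, 54.5, 54.6 and 97.9 CPM in Ro. Its Ro libraries 1 to 3 lay below every DMSO library, and library 4 of Ro lay near the top of both groups. ZWINT fell by 23.7% with the block (log2 -0.39 ± 0.093, edgeR adjusted p = 0.0310). BUB1, the kinase itself, had 57.7, 44.3, 42.8 and 49.4 CPM in DMSO and 45.9, 39.5, 38.1 and 44.5 CPM in Ro, a log2 difference of -0.20 ± 0.073 that did not pass (edgeR adjusted p = 0.158). The log2 differences were -0.25 for MAD2L1 and -0.13 for BUB1B, both subunits of the complex that holds CDC20, and neither passed.

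The anaphase-promoting complex partners and securin were also lower in all 4 pairs for 3 of 3 genes. CDC20 (chr1:43358981-43363203), the activator of the complex that the checkpoint holds back, had 60.3, 59.5, 65.5 and 67.2 CPM in DMSO and 32.8, 48.7, 52.7 and 62.5 CPM in Ro. The largest drop was in pair 1, and Ro library 4 overlapped the DMSO range. CDC20 fell by 22.6% with the block (log2 -0.37 ± 0.092, edgeR adjusted p = 0.0380). UBE2C, the ubiquitin-conjugating enzyme that works with the complex, had 97.4, 106, 109 and 136 CPM in DMSO and 77.2, 90.5, 91.2 and 122 CPM in Ro, and its log2 difference of -0.24 ± 0.069 did not pass in edgeR (adjusted p = 0.0735). PTTG1, the securin that restrains separase, had a log2 difference of -0.21 ± 0.075 and did not pass.

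Among the cyclins and CDK1, 4 of 4 genes had a lower fitted level in MOLM13. CCNB1 (chr5:69167150-69178245), cyclin B1, had 80.4, 80.8, 92.2 and 98.4 CPM in DMSO and 65.3, 70.8, 70.0 and 79.8 CPM in Ro. The highest Ro library lay just under the lowest DMSO library, so the groups did not overlap. CCNB1 fell by 18.7% with the block (log2 -0.30 ± 0.070, edgeR adjusted p = 0.0289). CDK1, its kinase partner, had 129, 123, 131 and 178 CPM in DMSO and 127, 118, 118 and 182 CPM in Ro. Only library 4 stood high in each group, and the difference of -0.053 ± 0.068 was smaller than its error. The other cyclins differed by -0.18 (CCNA2, cyclin A2) and -0.14 (CCNB2, cyclin B2) without passing. Of the CDC25 phosphatases that activate CDK1, CDC25B differed by -0.18. CDC25C had 10.6, 10.7, 8.83 and 13.3 CPM in DMSO and 14.9, 10.7, 9.29 and 11.5 CPM in Ro, with Ro library 1 the highest of the 8 and a difference of 0.052 ± 0.11.

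The mitotic kinases had lower fitted levels in 5 of 5 cases and passed in 0. PLK1, which promotes mitotic entry and centrosome maturation, had 20.8, 18.7, 20.9 and 45.8 CPM in DMSO and 11.6, 21.6, 18.5 and 32.2 CPM in Ro. The 4 pairs disagreed, with log2 changes of -0.84, 0.21, -0.17 and -0.51, and the blocked difference was -0.30 ± 0.11 (edgeR adjusted p = 0.180). AURKA, the spindle pole kinase, had 53.8, 56.2, 55.2 and 76.8 CPM in DMSO and 57.6, 51.8, 55.3 and 73.1 CPM in Ro, and the groups overlapped almost fully (log2 -0.027 ± 0.072). AURKB, the kinase of the chromosomal passenger complex, had 67.1, 53.5, 58.3 and 95.1 CPM in DMSO and 46.3, 49.2, 48.1 and 80.6 CPM in Ro. It was lower in all 4 pairs, and its difference of -0.29 ± 0.077 narrowly missed the threshold in edgeR (adjusted p = 0.0531). PLK4, which drives centriole duplication, differed by -0.042 and TTK, a checkpoint kinase, by -0.15. The partners of AURKB in the passenger complex differed by -0.23 for BIRC5 (survivin), -0.12 for CDCA8 (borealin) and -0.053 for INCENP, its scaffold. BIRC5 was lower in all 4 pairs.

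Spindle-associated proteins had lower fitted levels in 5 of 5 cases. HMMR (chr5:163460632-163491941), which helps organize the spindle poles, had 31.5, 30.5, 31.3 and 51.3 CPM in DMSO and 22.6, 26.5, 21.3 and 39.2 CPM in Ro. The DMSO libraries 1 to 3 were close together and above the matching Ro libraries, and pair 4 was high in both groups. HMMR fell by 24.4% with the block, the largest fall of the 45 genes (log2 -0.40 ± 0.082, edgeR adjusted p = 0.0103). TPX2, which activates AURKA on spindle microtubules, had 112, 128, 136 and 207 CPM in DMSO and 113, 113, 107 and 166 CPM in Ro, with pair 4 again high in both, and a difference of -0.21 ± 0.074. ASPM, a spindle pole protein, had 115, 132, 123 and 115 CPM in DMSO and 113, 113, 103 and 98.8 CPM in Ro. Its groups did not overlap, with the highest Ro library below the lowest DMSO library, although the edgeR adjusted p was 0.168 with the block (log2 -0.19 ± 0.070). NUSAP1, which bundles spindle microtubules, and DLGAP5, which stabilizes them, differed by -0.20 and -0.18.

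Kinetochore and centromere genes had lower fitted levels in 7 of 7 cases, with 0 past the threshold. CENPF, a large kinetochore protein, had 334, 422, 404 and 427 CPM in DMSO and 300.1, 392, 329 and 344 CPM in Ro. It was lower in all 4 pairs, and the groups overlapped by the lowest DMSO library (log2 -0.22 ± 0.067, edgeR adjusted p = 0.0990). The 4 subunits of the NDC80 complex, which holds microtubule ends, differed by -0.12 for NDC80, -0.14 for NUF2, -0.21 for SPC24 and -0.16 for SPC25. CENPA, the centromeric histone, differed by -0.24 and CENPE, a kinetochore motor, by -0.076.

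Kinesin motors had small differences, with a median of -0.086 and 0 of 5 past the threshold. KIF20A, a motor of the central spindle, had 16.8, 14.9, 16.4 and 20.2 CPM in DMSO and 16.8, 16.8, 14.6 and 16.4 CPM in Ro, and KIF23, another central spindle motor, had 19.4, 17.6, 20.4 and 20.5 CPM in DMSO and 22.2, 18.5, 17.1 and 20.3 CPM in Ro. Both sets of values overlapped throughout, with log2 differences of -0.086 ± 0.10 and -0.013 ± 0.092. KIF11, which pushes the spindle poles apart, differed by -0.16, KIF2C, a microtubule depolymerase, by -0.19 and KIF4A, a chromosome-bound motor, by -0.078. Among the genes of the central spindle and cytokinesis, PRC1, which cross-links antiparallel microtubules, differed by -0.21, ECT2, which activates RhoA at the furrow, by -0.070 and ANLN, the scaffold anillin, by 0.0013.

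TOP2A, the topoisomerase that untangles sister chromatids, had 1318, 1216, 1179.6 and 1494 CPM in DMSO and 1270.0, 1181, 1015 and 1182 CPM in Ro. It was lower in all 4 pairs, most in pair 4 (log2 -0.16 ± 0.068, edgeR adjusted p = 0.212). MKI67, the proliferation antigen Ki-67, had 171, 151, 160.4 and 287 CPM in DMSO and 189, 132, 122 and 211 CPM in Ro. Pair 1 went up and the other 3 pairs went down, and the difference of -0.22 ± 0.083 did not pass. FOXM1, the transcription factor of the set, had 8.26, 6.46, 5.67 and 5.00 CPM in DMSO and 11.9, 5.79, 6.26 and 5.04 CPM in Ro. Its values overlapped, it had the highest fitted change of the 45 genes, and that change of 0.11 ± 0.13 was smaller than its error.

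**Figure D3:**
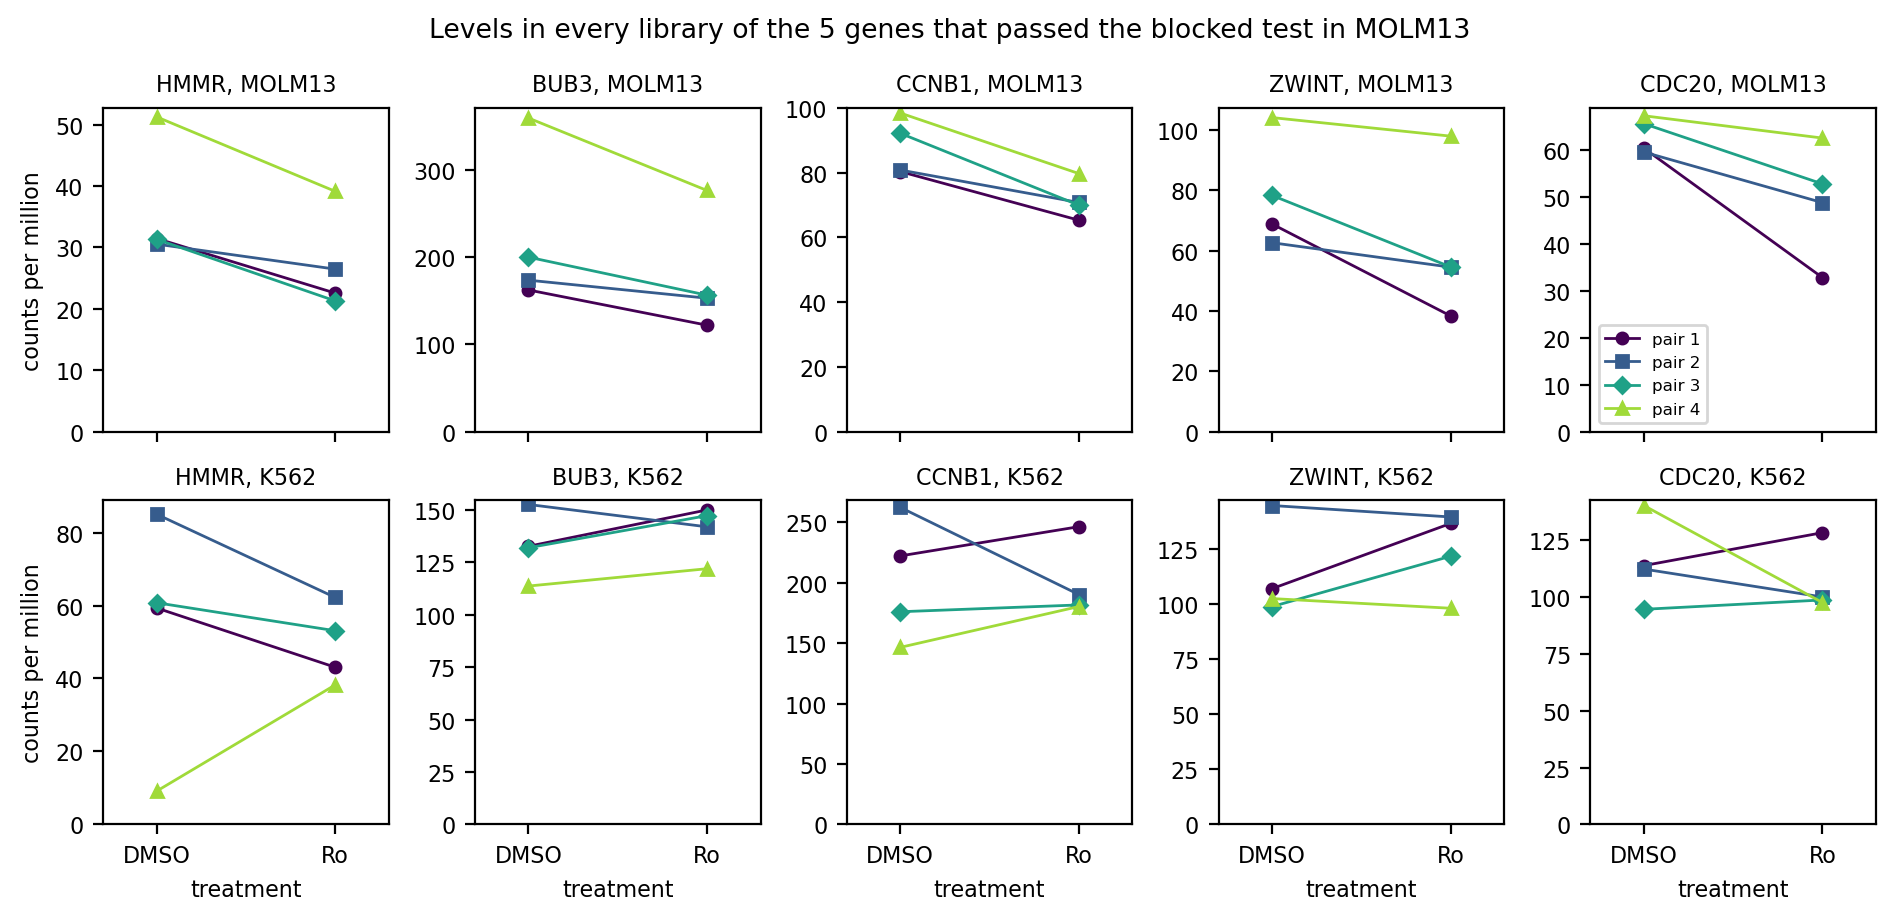
CPM (vertical axes from 0) of HMMR, BUB3, CCNB1, ZWINT and CDC20 in the DMSO and Ro library of each pair, with a line joining the members of a pair, in MOLM13 (top) and K562 (bottom). All MOLM13 lines slope down, and pair 4 lies above the other 3 pairs in every MOLM13 panel. In K562 the lines go both ways, and HMMR in pair 4 starts at 9.13 CPM.

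Promoter sequences are shown for genes that passed the blocked test. Promoters of mitotic genes are known for a shared layout, a CCAAT box that NF-Y binds and, nearer the start, the cell cycle genes homology region that MuvB complexes bind. The set was chosen by mitotic role, and the part of these elements in the change after Ro was not tested. RefSeq promoters (GRCh38.p14) were at hand for 38 of the 45 genes, as 51 windows of 250 bases before to 50 after a transcription start. BUB3 was not among them, and PLK1 and BUB1 are shown beside the 4 called genes as a kinase and a checkpoint gene that did not pass. Each line gives the 130 bases before the start, 5′ to 3′ on the gene's strand, with every match on either strand to TTTGAA, the usual spelling of that homology region, to its other common spelling TTTAAA, or to the box CCAAT written in capitals.
HMMR (chr5:163460502-163460631, plus strand): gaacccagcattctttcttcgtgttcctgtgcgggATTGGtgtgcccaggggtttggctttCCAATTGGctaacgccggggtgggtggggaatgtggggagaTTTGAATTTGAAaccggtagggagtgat
ZWINT (chr10:56361274-56361403, minus strand): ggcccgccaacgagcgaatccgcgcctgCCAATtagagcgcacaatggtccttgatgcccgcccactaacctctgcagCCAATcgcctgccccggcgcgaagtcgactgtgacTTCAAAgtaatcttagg
CDC20 (chr1:43358851-43358980, plus strand): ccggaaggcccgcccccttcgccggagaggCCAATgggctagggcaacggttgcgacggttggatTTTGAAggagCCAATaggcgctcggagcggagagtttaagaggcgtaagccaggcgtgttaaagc
CCNB1 (chr5:69167020-69167149, plus strand): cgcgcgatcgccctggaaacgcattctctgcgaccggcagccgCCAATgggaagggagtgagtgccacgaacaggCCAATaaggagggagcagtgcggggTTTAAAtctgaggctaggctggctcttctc
PLK1 (chr16:23678759-23678888, plus strand): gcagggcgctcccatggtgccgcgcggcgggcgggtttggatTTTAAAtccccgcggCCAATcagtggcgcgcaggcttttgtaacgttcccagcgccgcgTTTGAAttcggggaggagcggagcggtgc
BUB1 (chr2:110678064-110678193, minus strand): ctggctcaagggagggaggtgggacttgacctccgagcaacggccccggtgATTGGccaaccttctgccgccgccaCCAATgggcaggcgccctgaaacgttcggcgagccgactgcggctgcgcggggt

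These 6 windows share CCAAT upstream, as 2 or more copies except in PLK1, but differ in the other element. HMMR holds CCAAT 3 times, and a forward and a reverse copy there share letters. In HMMR, TTTGAA occurs as a direct repeat that begins 28 and 22 bases before the start, and in ZWINT it lies on the opposite strand, 17 bases before the more upstream of its 2 listed starts. CCNB1 has TTTAAA 30 bases before the start, PLK1 has TTTAAA 88 bases and TTTGAA 29 bases before it, CDC20 has TTTGAA 65 bases before it, and the BUB1 window has neither. The order also varies: a CDC20 CCAAT begins 55 bases before the start, nearer than its TTTGAA. In PLK1, CCAAT begins 73 bases before the start, nearer than TTTAAA.

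Over the whole set, the usual spelling TTTGAA was found on either strand in 28 of 38 genes with a promoter (73.7%), against 18.2% of 27305 genes. The other spelling, which reads the same on both strands, was found in 14 genes (36.8%, against 14.5%), and the CCAAT box in 32 (84.2%, against 39.7%). Either spelling of the homology region together with the box occurred in 26 genes (68.4%, against 11.2%), and 2 or more copies of the box in 22 (57.9%, against 12.9%). Counted by window, 62.7% of the 51 windows of the set and 15.2% of all 35116 windows held the usual spelling. Either spelling lay within 60 bases before the start in 24 of the 38 genes, and in 49% of their windows against 5.49% of all windows. A match describes these letters and is not a measured binding site.

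In K562, most of the same mRNAs had slightly higher fitted levels after Ro, some by more than their SE but none past the threshold. With the block, 37 of 45 genes had a higher fitted level and 8 a lower one, the changes ran from -0.13 to 0.39, and the median was 0.13. No gene of the set passed the test in either direction. Other genes of like mean level (2290) had a median of 0.089, near that of the 45, while all 15227 genes tested had one of 0.020. Of those 2290 genes, 1665 had a higher and 625 a lower fitted level. A lower level was thus seen for 17.8% of the set, 27.3% of genes of like mean level and 46.5% of all genes.

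Both fits called 0 of 45 genes and 0% of all genes in either direction (edgeR, with and without the block), 0 of the 45 had an unadjusted p under 0.05 in either fit, and DESeq2 with the block called 0 of the 45. The SE of a K562 change was larger than in MOLM13, with a common biological coefficient of variation of 0.206 against 0.0814 in the blocked fits. By pairs, 4 of the 45 genes, CCNA2, CDK1, CDC25C and KIF23, were higher in all 4 pairs, where 7.07% of all genes were, and 0 were lower in all 4, where 4.54% were. Of the 2290 genes of like mean level, 272 were higher and 30 were lower in all 4 pairs. No gene of the set had all Ro libraries below (background 0.611%) or above (background 0.644%) all DMSO libraries.

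The K562 changes turned on pair 4. Pairs 1 to 4 had medians of 0.13, -0.13, 0.040 and 0.36 over the 45 genes, and the genes spread most in pair 4, with an SD of 0.71 against 0.13 to 0.26 in the others. Without pair 4, the blocked median was 0.0068, 24 genes had a higher and 21 a lower level, and edgeR called 0 of 45 and 0 of 14634 genes tested.

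CCNB1 had 222, 262, 176 and 146 CPM in DMSO libraries 1 to 4 of K562 and 246, 190.1, 182 and 180.2 CPM in Ro libraries 1 to 4. Pair 2 went down and the others up, and the difference was 0.0089 ± 0.16, or -0.090 ± 0.14 without pair 4. CDK1 had 276, 235, 215 and 151 CPM in DMSO and 337, 248, 226 and 216 CPM in Ro, higher in all 4 pairs but with groups that overlapped (log2 0.24 ± 0.14, without pair 4 0.14 ± 0.11). CDC25C had 29.4, 27.5, 32.0 and 23.4 CPM in DMSO and 34.5, 31.1, 33.9 and 28.1 CPM in Ro, also higher in all 4 pairs (log2 0.19 ± 0.13, without pair 4 0.16 ± 0.11). Among the kinases, PLK1 had 49.3, 85.0, 39.7 and 38.5 CPM in DMSO and 89.8, 43.9, 42.5 and 44.9 CPM in Ro. DMSO library 2 and Ro library 1 stood at nearly the same high level, so that pairs 1 and 2 changed by 0.86 and -0.95 in opposite directions, and its difference was 0.073 ± 0.26 over all pairs and 0.040 ± 0.29 without pair 4. AURKA had 179, 176, 136 and 104 CPM in DMSO and 215, 160.5, 151 and 171 CPM in Ro (log2 0.25 ± 0.17, without pair 4 0.091 ± 0.11). AURKB had 102, 98.9, 88.8 and 126 CPM in DMSO and 122, 84.2, 90.2 and 84.3 CPM in Ro (log2 -0.13 ± 0.17, without pair 4 0.024 ± 0.12). In pair 4 these kinases moved apart, AURKA up and AURKB down.

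The checkpoint genes that passed the test in MOLM13 did not pass in K562, and their values went both ways. BUB3 had 133, 153, 132 and 114 CPM in DMSO and 150.0, 142, 147 and 122 CPM in Ro (log2 0.084 ± 0.13, without pair 4 0.076 ± 0.11). ZWINT had 107, 145, 98.9 and 103 CPM in DMSO and 137, 139.6, 122 and 98.2 CPM in Ro (log2 0.14 ± 0.14, without pair 4 0.20 ± 0.11). For both, pairs 1 and 3 went up and pair 2 went down. BUB1 had 74.2, 76.6, 68.2 and 32.1 CPM in DMSO and 75.7, 65.0, 67.8 and 49.6 CPM in Ro (log2 0.10 ± 0.16), with DMSO library 4 the lowest of the 8, and the sign turned without pair 4 (-0.070 ± 0.10). CDC20 had 114, 112, 94.5 and 140.1 CPM in DMSO and 128, 99.9, 98.6 and 97.5 CPM in Ro, and here DMSO library 4 was the highest of the 8 (log2 -0.11 ± 0.16, without pair 4 0.023 ± 0.11). TPX2 had 280.2, 356, 289 and 231 CPM in DMSO and 275, 309, 296 and 224 CPM in Ro (log2 -0.059 ± 0.13, without pair 4 -0.069 ± 0.11). KIF20A had 32.8, 32.6, 22.0 and 14.1 CPM in DMSO and 45.1, 23.7, 22.5 and 25.0 CPM in Ro (log2 0.21 ± 0.21, without pair 4 0.045 ± 0.17). The ranges of the groups overlapped for each of these 6 genes.

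HMMR, the gene with the largest fall in MOLM13, showed how much 1 library weighed. It had 59.3, 85.0, 60.8 and 9.13 CPM in DMSO and 43.1, 62.2, 53.1 and 38.2 CPM in Ro, lower in pairs 1 to 3 and higher in pair 4, whose DMSO library held 46 counts of the gene. Its difference was 0.13 ± 0.37 over 4 pairs and -0.37 ± 0.11 without pair 4. KIF23, with 36.4, 33.3, 30.9 and 11.9 CPM in DMSO and 41.6, 34.3, 33.4 and 30.4 CPM in Ro, had the largest fitted change of the set (0.39 ± 0.22), which was 0.12 ± 0.10 without pair 4. CENPF had 176, 248, 229.6 and 51.4 CPM in DMSO and 138, 234, 230.1 and 177 CPM in Ro, with 0.30 ± 0.32 over all pairs and -0.15 ± 0.11 without pair 4. TOP2A had 1586, 1697, 1489 and 493 CPM in DMSO and 1630.3, 1405, 1453 and 1533 CPM in Ro, with 0.32 ± 0.31 and -0.094 ± 0.14. In both, DMSO library 4 was the lowest of the 8, and the same held for MKI67. MKI67 had 73.0, 107, 98.0 and 34.5 CPM in DMSO and 62.3, 115, 107 and 81.6 CPM in Ro, with 0.29 ± 0.23 and -0.0047 ± 0.11. FOXM1 had 3.94, 7.11, 4.66 and 2.98 CPM in DMSO and 4.77, 4.02, 3.54 and 5.50 CPM in Ro, pairs 1 and 4 up and pairs 2 and 3 down (-0.026 ± 0.29, without pair 4 -0.26 ± 0.26).

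K562 DMSO library 4 was low in some mitotic genes and not in others. Against the mean of the other 7 K562 libraries, 12 of the 45 genes were more than 1 log2 unit lower, where 10.3% of all genes were, and 37 of 45 were below the all-gene median. The lowest were HMMR (-2.60), BUB1B (-2.31), NDC80 (-2.18), ASPM (-2.02), CENPF (-1.97) and TOP2A (-1.64), while AURKB (0.40), CDC20 (0.40), CDCA8 (0.22) and UBE2C (0.98) were above. The deviation went with the transcript: over the 45 genes its Spearman correlation was 0.505 with the GC content of the longest coding transcript and -0.452 with its length, and over 13140 genes it was 0.308 and -0.0615. All points of these correlations come from 1 library. In the MOLM13 libraries, each set against the mean of the rest, the 45 genes gave -0.331 to 0.276 with GC content and -0.407 to 0.399 with length. Length correlations nearly as large were thus seen in other libraries. In the other 7 K562 libraries, the 45 genes gave -0.460 to 0.0393 with GC content and -0.220 to 0.382 with length. Each of those libraries was set against the mean of the rest, which includes DMSO library 4. The change in pair 4 had a median of 0.22 over the 23 shorter genes and 0.80 over the 22 longer ones. The library held 4383241 counts, and the 2 shallowest K562 libraries, DMSO 4 and DMSO 2 (3143129 counts), had median deviations of -0.55 and 0.20. The part of depth, transcript length and GC content in the change of pair 4 was not tested.

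**Figure D4:**
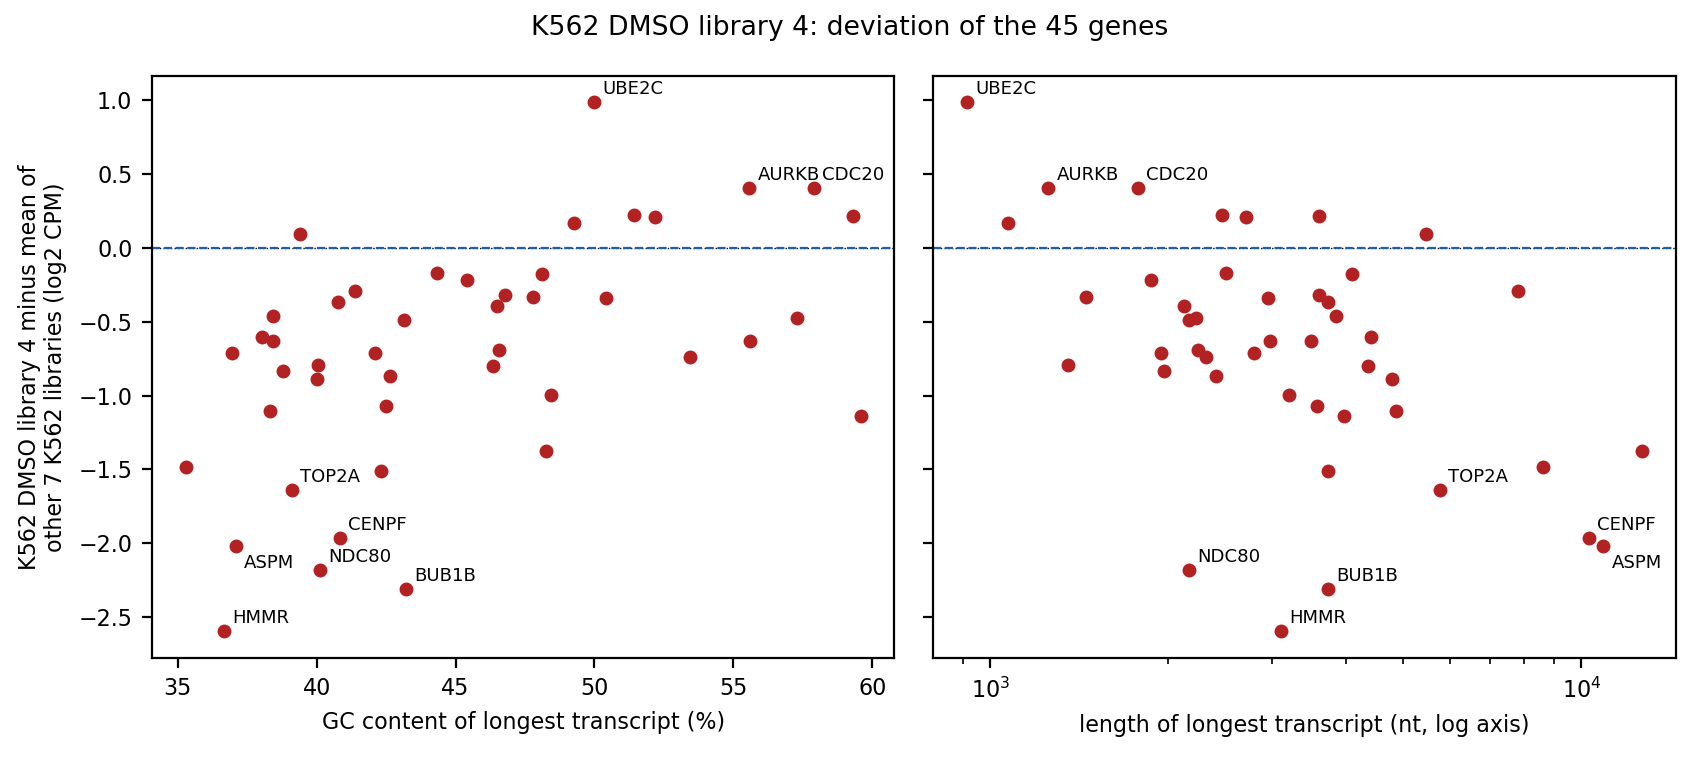
Deviation of K562 DMSO library 4 from the mean of the other 7 K562 libraries (log2 CPM, vertical axis) for the 45 genes, against the GC content (left) and the length on a log axis (right) of the longest coding transcript. The dashed line is the median of all genes. The points scatter widely about the trends given above (Spearman 0.505 and -0.452). HMMR (-2.60) is the lowest gene and AURKB and CDC20 (both 0.40) lie above the line, while INCENP, with the highest GC content, lies at -1.14 and MAD2L1, with a long transcript of low GC content, at 0.10.

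The change after Ro was compared between the lines in a fit of all 16 libraries. The 45 genes had a median difference (K562 minus MOLM13) of 0.30 with the block, where all 16224 genes tested had one of 0.025. In the fits of single lines, genes of like mean level had blocked medians of -0.027 in MOLM13 and 0.089 in K562. The K562 median of the 45 genes was 0.13 over all pairs and 0.0068 without pair 4. The part of mean level and of K562 pair 4 in the line difference was not tested. No gene passed with or without the block, in the set or among all genes (0%), so a line difference in the Ro change is not shown for any single mitotic gene. The smallest blocked p-values belonged to BUB3 (difference 0.43 ± 0.14, SE, unadjusted p = 0.0104), ZWINT (0.55 ± 0.19, unadjusted p = 0.0125), SPC24 (0.36 ± 0.14), CCNA2 (0.35 ± 0.14) and KIF2C (0.34 ± 0.15), each with an edgeR adjusted p of 0.766. These 5 genes, or 11.1% of the set, had an unadjusted p under 0.05 with the block, against 6.01% of all genes, and 0 had without it, against 1.34%.

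The untreated lines differed in mitotic mRNAs about as often as in other genes, with some large single differences. In DMSO libraries, 12 of 45 genes were higher and 7 lower in K562 than in MOLM13, where 20.3% of all 15268 genes were higher and 21.1% lower. The set as a whole leaned to K562, with a median log2 difference of 0.22 against 0.0047 for all genes. With the Ro libraries of both lines in place of the DMSO libraries, 23 were higher and 7 lower, with a median of 0.51, where 27.5% of all 15346 genes were higher and 26.8% lower with a median of -0.051. In the Ro libraries the share of the set that was higher in K562 was thus above that of all genes. For the DMSO comparison CPM were scaled over the 8 DMSO libraries together, so the levels differ somewhat from those given above, and values are mean ± SD of 4 libraries.

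CDCA8, the passenger subunit borealin, was 62.6 ± 10.9 CPM in MOLM13 and 179.8 ± 25.9 CPM in K562 (log2 1.52 ± 0.21, edgeR adjusted p = 6.54e-05), a 2.87-fold higher level with no overlap of the groups. KIF2C was 51.3 ± 15.1 CPM in MOLM13 and 140.1 ± 21.9 CPM in K562, 2.72-fold higher, and SPC25 was 30.4 ± 10.5 CPM in MOLM13 and 82.2 ± 24.2 CPM in K562, 2.70-fold higher. PTTG1 was 72.9 ± 16.5 CPM in MOLM13 and 187 ± 17.1 CPM in K562, 2.56-fold higher, but near-identical copies of this gene exist and how reads on them were counted is not given in the sources used here. Of the cell cycle engine, CCNA2 was 2.39-fold, CDC25C 2.02-fold and CCNB1 1.79-fold higher in K562. AURKA was 1.92-fold, CENPA 1.78-fold, BIRC5 1.66-fold, CCNB2 1.66-fold and PRC1 1.62-fold higher. For CCNB2 the DMSO libraries of the lines overlapped. Non-overlap in the others is no added support, since they were called on the same libraries. The share of all genes without overlap was not counted.

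In K562, 7 genes were lower than in MOLM13. UBE2C was 127 ± 21.3 CPM in MOLM13 and 1.49 ± 0.785 CPM in K562, an 89.3-fold higher level in MOLM13 (log2 -6.48 ± 0.33, edgeR adjusted p = 6.75e-09) and by far the widest gap of the set. All 8 K562 libraries were low, with 3 to 63 counts of UBE2C, against 743 to 5430 counts in MOLM13. How reads at this gene were assigned or shared with like sequences is not given in the sources used here, and this gap is one of counts. Other members of the same pathway step did not share this pattern, with CDC20 at a log2 difference of 0.51 ± 0.20 and PTTG1 at 1.35 ± 0.22. MKI67 was 3.15-fold, CENPF 2.87-fold and BUB3 2.16-fold higher in MOLM13, with log2 differences of -1.66, -1.52 and -1.11. KIF11 (-0.95), FOXM1 (-0.82) and TTK (-0.54) were lower by less, and FOXM1 no longer passed in 6 of the 8 fits with 1 library left out. MKI67 and CENPF were also among the genes that K562 DMSO library 4 held at low levels, and in the Ro libraries their log2 differences were -1.18 and -1.15.

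The remaining 26 genes did not pass. Of the named ones, the log2 differences (K562 over MOLM13) were 0.29 ± 0.24 for CDK1, 0.62 ± 0.34 for PLK1, 0.24 ± 0.23 for AURKB, 0.63 ± 0.25 for TPX2, 0.025 ± 0.26 for BUB1 and 0.17 ± 0.23 for ZWINT. Those of KIF20A (0.22 ± 0.27), KIF23 (0.19 ± 0.29) and HMMR (0.21 ± 0.46) were smaller than their errors, and that of TOP2A was -0.34 ± 0.33. Total-count scaling in place of TMM moved the median of all genes from 0.0047 to 0.41, and with it the calls of the set from 12 higher and 7 lower to 22 higher and 4 lower. Over all 15268 genes tested, the calls in both directions together went from 6313 to 7031. Relative to all genes, the median of the set was 0.22 under TMM and 0.19 under total-count scaling.

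**Figure D5:**
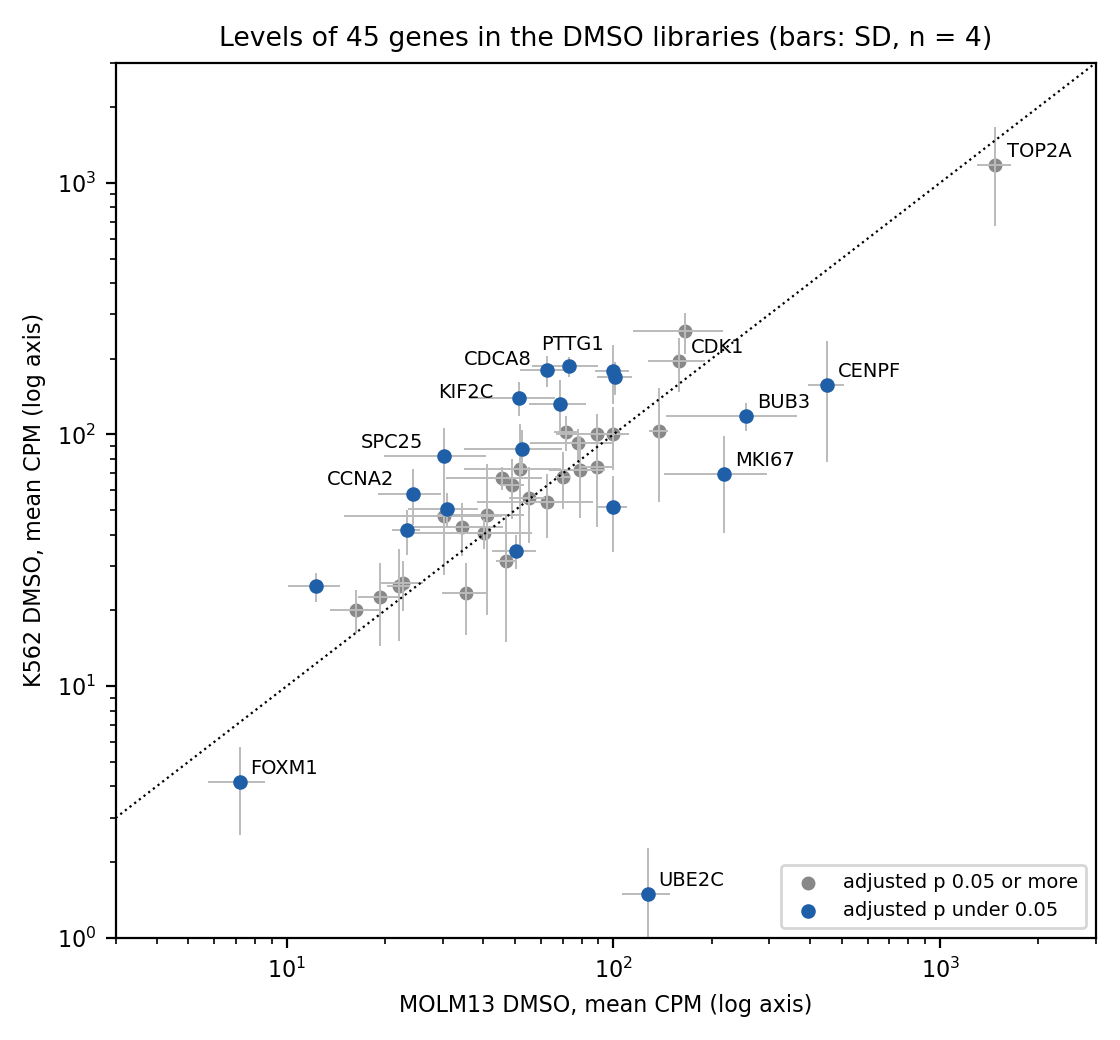
Mean CPM of the 45 genes in the 4 DMSO libraries of MOLM13 (horizontal log axis) and of K562 (vertical log axis), with bars of 1 SD. The dotted line marks equal levels, and blue points have an adjusted p under 0.05 (edgeR). UBE2C lies far below the line (127 against 1.49 CPM), and CDCA8, KIF2C, SPC25, PTTG1 and CCNA2 lie above it.

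Other genes of mitosis, listed by hand apart from the 45, gave a smaller shift in MOLM13, near that of the 2975 genes used above for like mean level. Of 119 such genes 112 were tested, and 71 had a lower and 41 a higher fitted level with the block. Of the 2975 genes, 58.2% had a lower one. The median was -0.052 for the 112 genes and -0.027 for the 2975. Lower in all 4 pairs were 24 of the 112 (21.4%, against 13.3% of all genes and 19.3% of the 2975). Of the 112, 3 passed (2.68%, against 1.17% of all genes called lower and 2.32% of those 2975), a share near the background, all lower: KNSTRN, a spindle and kinetochore protein, KIFC1, a minus-end-directed motor that clusters spindle poles, and KIF22, a chromosome-bound motor. KNSTRN had 23.3, 18.0, 19.3 and 32.2 CPM in DMSO and 15.0, 14.2, 14.8 and 22.1 CPM in Ro (log2 -0.47 ± 0.089, edgeR adjusted p = 0.00624). KIFC1 had 72.1, 75.2, 79.9 and 109 CPM in DMSO and 55.9, 61.3, 64.2 and 92.2 CPM in Ro (log2 -0.30 ± 0.070, edgeR adjusted p = 0.0252). KIF22 had 25.2, 25.1, 26.5 and 54.4 CPM in DMSO and 20.3, 21.5, 21.3 and 39.9 CPM in Ro (log2 -0.33 ± 0.081, edgeR adjusted p = 0.0332). In these 3 genes pair 4 was high in both groups, and each pair was lower in Ro.

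By list, the other spindle motors and assembly genes had 3 of 30 tested called lower (10.0%, beside the same 1.17% of all genes) and a median of -0.074, the other kinetochore, centromere and checkpoint genes 0 of 31 and -0.068, condensin, cohesin and separase genes 0 of 16 and -0.045, and anaphase-promoting complex subunits and regulators 0 of 18 and -0.029. MuvB, DREAM and E2F regulators, which control these genes, had 0 of 17 called and a median of 0.020. In K562, 0 of the 112 genes passed in either direction, 86 had a higher and 26 a lower fitted level, and the median was 0.12. Of the 2290 K562 genes used above for like mean level, 1665 had a higher and 625 a lower one, with a median of 0.089.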

How the data were processed

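RNA of MOLM13 and K562 cells was sequenced from mRNA 3′ ends after 4 h with DMSO or 20 µM Ro, 4 libraries per group. The authors deposited 1 table of whole-number read counts per gene for 25221 genes, without normalization. According to the submitters' processing notes, Trim Galore, STAR 2.5.3a and SAMtools 1.5 and the build hg38 were used; the counting program and annotation are not given in the sources used here, so counts of overlapping genes and of near-identical copies are uncertain. Spike-in rows were not used here, and 0 count columns lacked a sample.

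Groups and pair numbers came from the labels. A gene was kept where 4 or more libraries held 10 or more counts, and edgeR 4.0.16 (R 4.3.3) was fitted with TMM scaling and its quasi-likelihood test, with Benjamini-Hochberg adjustment over all genes kept and a threshold of 0.05, line by line for Ro against DMSO, over the 8 DMSO libraries for the lines, and over 16 libraries for the interaction. The methods of the study name no pairing, so the fit without the pair number was the main one. The pairing comes from the numbers in the labels: how far libraries of 1 pair lay from the mean of their group correlated across genes at 0.385 to 0.831 in MOLM13 and 0.109 to 0.416 in K562, above the minimum of 0.1 in each pair. Values with the pair number as replicate block are therefore given beside the main ones and, for changes after Ro, as the values of single genes. Log2 CPM used a prior count of 2, and pair changes are differences of these values. Genes of like mean level were those within the middle range (first to last quartile) of the 45. Depth ranged from 3143129 to 43571060 counts, and the floor of 3 counts covers counting error only.

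All 45 genes are accounted for. Values in every library are given for the main gene of each role, for genes called with the block and for the extremes of change in each line; UBE2C and ASPM were added after their values were seen. The 45 genes, 5 further lists of mitotic genes, 2 lists of line markers and the rules were chosen with earlier results of these data known. Transcript length and GC content came from GENCODE, with the longest coding transcript of each gene, for 88.1% of genes tested in MOLM13 and 87.9% in K562. Promoters and gene positions came from RefSeq (GRCh38.p14), matched by symbol or Entrez identifier. The scripts were tested on simulated data with known changes. Alternatives were DESeq2 1.42.0, limma 3.58.1 (voom), the replicate block, other scalings and filters, the removal of the trend on mean level, 1 fit of all libraries, and each library or pair left out. Python 3.11.15 with pandas 2.3.3, numpy 2.4.6 and matplotlib 3.10.9 served for sequences and figures.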

Additional observations from a re-analysis of the deposited data

Results flagged for a closer look

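In 15 of 76 groups of 4 libraries, 1 library stood further from the others than Dixon's criterion at 95% allows, where chance flags about 1 in 20 groups. The groups share libraries, so the flags are not independent of each other. The median deviation of the 45 genes on the log2 scale was flagged in MOLM13 at 0.35 for DMSO library 4 and at 0.18 for Ro library 4. The same MOLM13 DMSO library was flagged for CDK1 (178 CPM, next highest 131), PLK1 (45.8, next 20.9), AURKA (76.8, next 56.2), MKI67 (287, next 171) and HMMR (51.3, next 31.5). MOLM13 Ro library 4 was flagged for CDK1 (182 CPM, next 127), TPX2 (166, next 113) and AURKB (80.6, next 49.2). In K562, Ro library 1 was flagged as high for CCNB1 (246 CPM, next 190.1), CDC20 (128, next 99.9), PLK1 (89.8, next 44.9), KIF20A (45.1, next 25.0) and AURKB (122, next 90.2). K562 DMSO library 4, at a median deviation of -0.55, was not flagged by this criterion. What sets the flagged libraries apart was not tested.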

How the results depend on the processing

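In MOLM13, the count of the 45 genes called after Ro was 0 without the block, also with DESeq2, limma-voom, other scalings and filters and with any library left out. It was 5 in edgeR with the replicate block, 7 in DESeq2 with the replicate block, and, with the block under scalings chosen after seeing the data, 6 with DESeq2 size factors, 3 with upper-quartile and 3 with total-count scaling. With the block and 1 pair left out it ranged from 0 to 5, at 0 without pair 1, 3 without pair 2, 0 without pair 3 and 5 without pair 4. The block moved the calls over all genes from 0 to 317 in edgeR, and DESeq2 with the block called 266. For the other scalings and the pairs left out, the calls over all genes are not given here. The median change ranged from -0.24 to -0.051 with libraries or pairs left out, -0.051 without DMSO library 4. Other genes of like mean level had a median of -0.032 without the block and with all libraries. In K562, 0 of the 45 genes were called in any fit, and over all genes 0 were called except for 2 in DESeq2 with the replicate block. Its median change of 0.081 was reversed at -0.017 without DMSO library 4 and ranged from -0.017 to 0.18. Between the lines, total-count scaling moved the median difference of 0.22 to 0.60, and the Ro libraries in place of the DMSO libraries moved the count from 19 to 30. The Ro libraries moved the calls over all genes from 6313 to 8330. With 1 library left out the count of the set ranged from 15 to 23, and the calls over all genes in those fits are not given here. The replicate block left the count of the set at 19 in edgeR and in DESeq2, but here it matched pair numbers across the lines. Pairs of different lines are separate cultures, so this fit is no check of the count. For the line difference in the Ro change, 0 genes of the set were called under each alternative.

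Single named genes were recomputed 378 times for MOLM13, of which 328 kept direction and side of the threshold, 19 gained and 31 changed sign. For K562 the numbers were 378, 333, 0 and 45, and for the lines 324, 281, 24 and 12, with 7 that lost the threshold, all for FOXM1. In MOLM13, KIF23 was -0.014 (DESeq2), -0.0060 (voom), -0.013 (edgeR with replicate block), -0.023 (DESeq2 with replicate block), -0.011 (DESeq2 size factors) and -0.0048 (no filter). AURKA was 0.0024 (upper quartile) and 0.026 (total count), and CDK1 was 0.010 (total count). In K562, voom gave 0.016 for CCNB1, 0.040 for FOXM1 and 0.21 for HMMR. The block gave 0.0089 for CCNB1 and 0.13 for HMMR in edgeR, and 7.755e-04 and 0.16 in DESeq2. Upper quartile gave -0.011 for BUB1, total count -0.012 for BUB1 and -0.016 for PLK1, and no filter 9.489e-04 for CCNB1 and 0.0038 for FOXM1. Between the lines, BUB1 was -0.058 (voom), -0.041 (edgeR with replicate block) and -0.047 (DESeq2 with replicate block), HMMR -0.13 (voom), and TOP2A 0.038 (total count) and 0.035 (Ro libraries). The cause of these changes was not tested.

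In MOLM13, the log2 values with 1 library or pair left out ran, for KIF23 from -0.068 to 0.078, for CDC25C from -0.055 to 0.21, for CDK1 from -0.22 to 0.093, for PLK1 from -0.63 to 0.065, for AURKA from -0.15 to 0.11, for KIF20A from -0.18 to 0.012, for MKI67 from -0.38 to 0.027 and for FOXM1 from -0.14 to 0.34. In K562, the log2 values with 1 library or pair left out ran, for CCNB1 from -0.15 to 0.15, for TPX2 from -0.16 to 0.050, for FOXM1 from -0.26 to 0.18, for HMMR from -0.46 to 0.35, for PLK1 from -0.29 to 0.39, for BUB1 from -0.18 to 0.20, for CENPF from -0.16 to 0.53, for KIF20A from -0.12 to 0.41, for TOP2A from -0.094 to 0.52, for MKI67 from -0.011 to 0.46, for CDC20 from -0.25 to 0.023 and for AURKB from -0.29 to 0.024. Between the lines, the log2 values with 1 library or pair left out ran, for BUB1 from -0.11 to 0.23 and for HMMR from -0.11 to 0.56.

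UBE2C in K562 had 3 counts in its lowest library and 1.19 CPM in the deepest, DMSO library 1. The part of depth in this level was not tested.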
